A study of Homo sapiens with 4 samples.

Results

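The genes examined encode 9 cell-surface antigens that are targets of therapy or imaging in prostate cancer: FOLH1, STEAP1, STEAP2, PSCA, CD276, EPCAM, CEACAM5, ERBB2 and ERBB3. They were taken by name, with earlier results of these data known, and matched by GENCODE symbol to the Ensembl identifiers of the tables. All 9 were found among 60308 gene identifiers, of which 24914 had at least 1 read. Of the 9 genes, 8 passed the filter on low counts and were tested among 12848 genes; CEACAM5 was not tested.

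RNA reads from stranded total RNA libraries were counted per gene in VCaP, a line of human prostate cancer cells known for its TMPRSS2-ERG fusion. The comparison addresses the effect of knocking down ZBTB7A, a zinc finger transcription factor best known as a repressor. The siZBTB7A group was VCaP cells that received siRNA against ZBTB7A, and the siNTC group was VCaP cells that received a non-targeting siRNA. Both groups were grown with serum, and each was represented by 2 count tables. The siRNA sequences and the time from transfection to harvest were not given in the sources used here, and a single cell line was studied.

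Surface antigens serve as docking points for antibodies, antibody-drug conjugates, engineered T cells and radioligands, which need the protein to be displayed on the tumour cell. FOLH1 encodes PSMA, the folate hydrolase on which PSMA imaging and radioligand therapy rest, and its RNA is typical of luminal prostate cells. STEAP1 and STEAP2 belong to a family of membrane metalloreductase-like proteins that is abundant in prostate epithelium, whereas CEACAM5 is best known from gut epithelium and from neuroendocrine prostate tumours. Only RNA was measured, so nothing here bears directly on the amount of protein at the surface.

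Gene reads on the kit's strand, summed over a group's tables, came to 11301923 in siZBTB7A and 11665394 in siNTC. The tables of a group differed by no more than sampling noise, with a chi-square per degree of freedom of 0.995 in siZBTB7A and 0.993 in siNTC, against 3.50 to 3.64 between tables of different groups. Each group was therefore counted as 1 library. Where the tables of the groups are said below to lie apart, that is not an agreement of replicates. The p-values below compare 2 libraries and not the conditions, the spread behind them may be technical, and the 95% intervals of folds cover counting error only. ZBTB7A itself had 70 and 74 reads in the siZBTB7A tables, against 90 and 115 reads in the siNTC tables. Its fold of 0.743 had a counting interval of 0.597 to 0.924, and it did not pass the test at an adjusted p under 0.05 (edgeR's quasi-likelihood method with Benjamini-Hochberg adjustment, adjusted p = 0.0969). A direction stated below is therefore that of the library labelled siZBTB7A. Luminal prostate markers summed to 7060 to 7070 CPM (reads scaled to the TMM-adjusted library total) in the siZBTB7A tables and 6870 to 6960 CPM in the siNTC tables. Of these 9 markers, 7 had a fold above 1 and 3 were called higher, KLK2 (fold 1.024), HOXB13 (1.082) and SLC45A3 (1.155). KLK2 held 44738 of the 78868 luminal reads in siZBTB7A, and ACPP had a fold of 0.971 and was not called. Basal markers summed to 336 to 345 CPM in siZBTB7A and 367 to 376 CPM in siNTC, with 1 of 2 tested, DST, called lower and KRT5 at 0 reads. Most of these reads came from DST (2430 in siZBTB7A and 2826 in siNTC) and ITGA6 (1355 in siZBTB7A and 1543 in siNTC). TP63, KRT14 and KRT15 had 1, 15 and 2 reads in siZBTB7A, against 0, 20 and 1 in siNTC. Over all genes tested, 2.25% were called higher and 2.72% lower, and of genes with at least 1000 reads 11.1% were called. Markers of non-epithelial cells were sparse. The leukocyte and endothelial list summed to 32 reads in siZBTB7A and 24 reads in siNTC. Most of these came from CD14, with 23 in siZBTB7A and 17 in siNTC. VWF had 9 reads in siZBTB7A and 4 in siNTC, and CD3E, LYZ, MS4A1 and CDH5 were among those at 0 reads. Of the 10 genes in this list, PECAM1 was not matched by symbol. The fibroblast list summed to 162 reads in siZBTB7A and 204 reads in siNTC, most of them from LUM (144 in siZBTB7A and 178 in siNTC), with COL1A2 at 0.

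Set side by side per length, the antigen genes spanned a wide range of levels. By mean TPM (abundance per transcript length, here merged exon length) over the 4 tables, FOLH1 stood at 174, STEAP1 at 153, EPCAM at 139 and STEAP2 at 93.0. CD276 followed at 44.1 TPM. ERBB2 at 5.22, PSCA at 3.77 and ERBB3 at 3.05 TPM formed a low group, and CEACAM5 was at 0.0478 TPM. Among 19596 protein-coding genes, FOLH1 ranked 236, STEAP1 268, EPCAM 304 and STEAP2 502, whereas ERBB3 ranked 9134. The tables of PSCA and ERBB3 overlapped in TPM, so their order was not resolved; no other neighbours in the order overlapped. STEAP1 and EPCAM changed places when the length of the longest transcript was used instead (168 TPM for STEAP1 and 180 TPM for EPCAM). Together the 9 genes held 0.134% of gene reads in siZBTB7A and 0.134% in siNTC, and FOLH1 with STEAP2 made up 61.5% of those reads in siZBTB7A and 61.1% in siNTC.

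**Figure D1:**
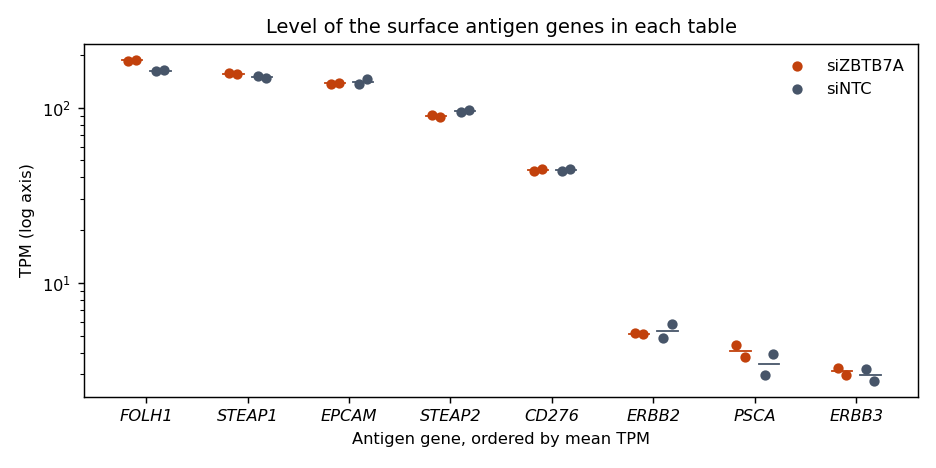
Level of each antigen gene in each table, in TPM on a log axis, with the genes ordered by mean TPM and 1 point per table (siZBTB7A left of siNTC). FOLH1, STEAP1, EPCAM and STEAP2 lie near or above 90 TPM, CD276 lies near 44 TPM, and ERBB2, PSCA and ERBB3 lie between 2.76 and 5.79 TPM.

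Of the 8 antigen genes tested, FOLH1 alone was called, and it was higher in siZBTB7A (edgeR, adjusted p under 0.05). Over all genes tested, 4.97% were called, 2.25% higher and 2.72% lower; among the 4067 genes with at least 1000 reads in all, as 5 of the antigen genes have, 11.1% were called. The count over all genes, 639, depended on the setting: it was between 303 and 373 with 1 table left out, 373 with the GC and length correction (199 higher and 174 lower) and 105 by DESeq2. A count of 1 of 8 is therefore not a result about the antigens as a group. The fold was above 1 for 5 of the 8, and their median fold was 1.034, against 1.001 over all genes tested. Without adjustment, 2 of the 8 had a p under 0.05, FOLH1 and STEAP2.

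FOLH1, the PSMA gene, had the highest TPM of the antigen genes, though STEAP2 had more reads, and was modestly higher in the siZBTB7A library. It had 2176 and 2273 reads in the siZBTB7A tables, against 1999 and 2070 reads in the siNTC tables. Scaled to the TMM-adjusted totals, this was 396 and 401 CPM in siZBTB7A and 344 and 345 CPM in siNTC. Both siZBTB7A tables lay above both siNTC tables, and the gap between groups was wider than that within either. The fold was 1.157, with a counting interval of 1.109 to 1.208, and the log2 fold was 0.21 with a standard error of 0.03 (edgeR quasi-likelihood test, adjusted p = 7.25e-08). For scale, the log2 fold of the 4003 protein-coding genes with at least 1000 reads had an SD of 0.115. In a bulk sample such as this, more cells of a type and more RNA per cell cannot be told apart. The part of the luminal markers in the FOLH1 difference was not tested. Against a null fold of 1.2 rather than 1, FOLH1 did not pass.

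**Figure D2:**
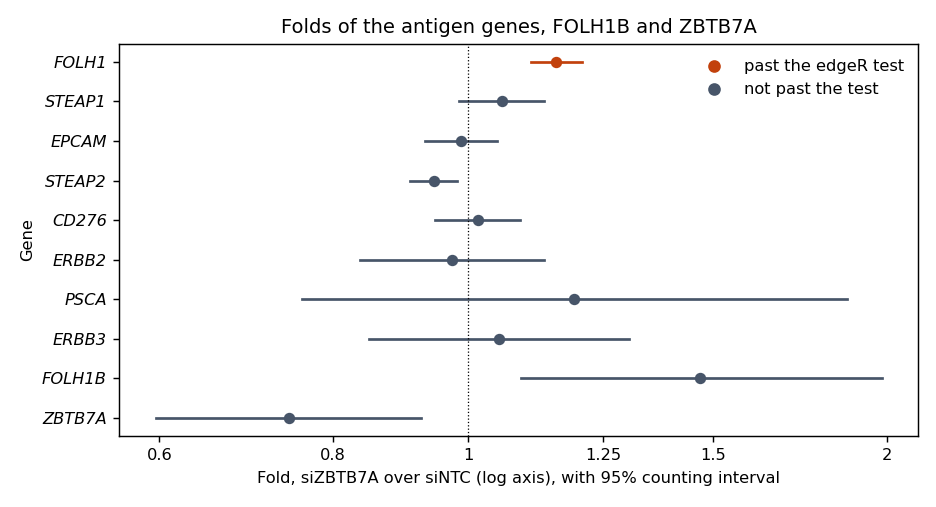
Fold of each antigen gene, FOLH1B and ZBTB7A, siZBTB7A over siNTC on a log axis, with the exact 95% counting interval from the summed tables. The FOLH1 interval, 1.109 to 1.208, lies wholly above 1, the STEAP2 interval, 0.909 to 0.982, lies below 1, and the low-count genes PSCA, ERBB2 and ERBB3 have wide intervals that span 1.

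FOLH1 reads share sequence with FOLH1B, a near-identical relative on the same chromosome, chromosome 11. Of all windows of 50 bases in the FOLH1 transcript, 41.8% also occurred in a transcript of another gene, and for windows of 100 bases the share was 19.6%. The read length was not given, and reads that map to several places are not counted in this layout, so reads from shared stretches can be missing from the FOLH1 count. FOLH1B had 60 and 51 reads in the siZBTB7A tables, against 34 and 46 reads in the siNTC tables. Its fold of 1.468 (counting interval 1.092 to 1.983) did not pass the test (edgeR, adjusted p = 0.117). When the reads of both genes were joined, they numbered 4560 in siZBTB7A and 4149 in siNTC, a fold of 1.16 (1.11 to 1.21). The ratio of FOLH1 to FOLH1B reads in siZBTB7A was 0.788 times that in siNTC, with an interval of 0.582 to 1.06 that includes 1. Of the other PSMA relatives, NAALAD2, a peptidase of the same family, had 3461 reads in siZBTB7A and 3595 in siNTC, a fold of 1.019 (0.972 to 1.068). NAALADL1 had 0 reads in both groups, and 0 of the 3 tested relatives were called (median log2 fold 0.027, against 0.0008 over all genes tested).

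**Figure D3:**
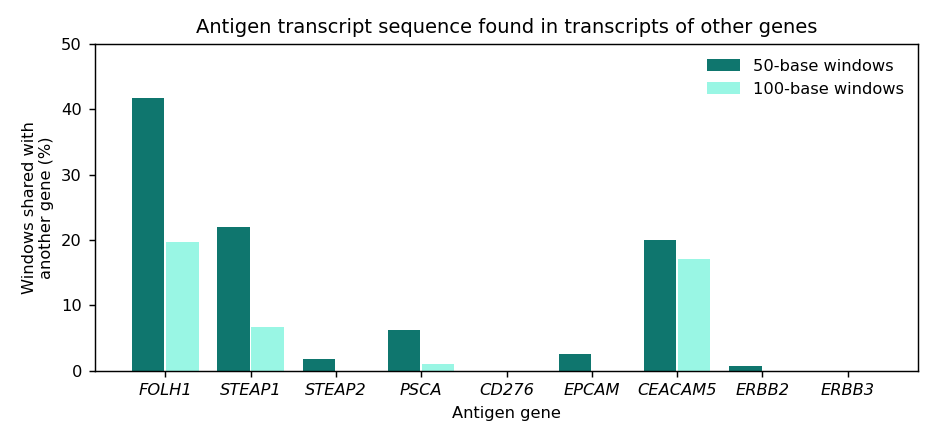
Share of the windows of 50 and of 100 bases in the longest transcript of each antigen gene that also occur in transcripts of another gene, in percent. FOLH1 has the highest shares (41.8% and 19.6%), followed at 50 bases by STEAP1 (22.1%) and CEACAM5 (19.96%), whereas CD276 and ERBB3 have 0.

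STEAP1 and STEAP2 are next to each other on chromosome 7 and had different folds. STEAP1 had 791 and 800 reads in the siZBTB7A tables, against 795 and 798 reads in the siNTC tables, which gave 144 and 141 CPM in siZBTB7A and 137 and 133 CPM in siNTC. Both siZBTB7A tables lay above both siNTC tables, by little, and the fold of 1.057 (0.985 to 1.134) was not called (edgeR, adjusted p = 0.43). STEAP2 had 2442 and 2460 reads in siZBTB7A, against 2662 and 2829 reads in siNTC, or 445 and 434 CPM in siZBTB7A against 458 and 471 CPM in siNTC. Here both siZBTB7A tables lay below both siNTC tables. The fold was 0.945 (0.909 to 0.982) and missed the threshold (edgeR, unadjusted p = 0.00393, adjusted p = 0.0667), and with the fold corrected for GC content and length the log2 fold was -0.002, against -0.08 without. GC content was 36.9% in the STEAP2 transcript, 42.5% in STEAP1 and 44.3% in FOLH1.

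The balance between the STEAP genes can be read within each table. The TPM ratio of STEAP2 to STEAP1 was 0.576 and 0.573 in the siZBTB7A tables and 0.624 and 0.661 in the siNTC tables, with no overlap. From summed reads, the ratio in siZBTB7A was 0.894 times that in siNTC (counting interval 0.825 to 0.969). The TPM ratio of FOLH1 to STEAP2 was 2.03 and 2.11 in siZBTB7A and 1.71 and 1.67 in siNTC, a read ratio 1.22 times that in siNTC (1.16 to 1.3). These ratios do not depend on the scaling of the tables, but the 3 genes differ in GC content and length. With the GC and length correction the log2 folds were -0.002 for STEAP2, 0.102 for STEAP1 and 0.219 for FOLH1, so STEAP2 and STEAP1 lay closer together than without it. STEAP1 shares 22.1% of its 50-base windows with STEAP1B, which had 0 and 0 reads in siZBTB7A and 1 and 0 in siNTC. STEAP2-AS1, a transcript on the strand opposite STEAP1 and STEAP2, had 23 reads in siZBTB7A and 28 in siNTC (edgeR, adjusted p = 0.855). STEAP3, a metalloreductase of the family, had 152 reads in siZBTB7A and 184 in siNTC, a fold of 0.874 (0.701 to 1.09); 0 of the 3 tested STEAP genes were called, with a median log2 fold of -0.08.

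The promoters of the adjacent pair STEAP1 and STEAP2, and of CEACAM5, which was nearly without reads, are printed below from RefSeq (GRCh38.p14). Each runs from 250 bases before to 50 bases after the start, plus strand, 5′ to 3′. Neither STEAP gene was called, and with the GC and length correction the STEAP2 log2 fold was -0.002. A link between the motifs and the folds was not tested. FOLH1, the called antigen gene, had no promoter entry. Capitals mark letters that match, on either strand, CCTTCCC (a C-rich element of the gamma-globin promoter bound by ZBTB7A), CCGGAAG (an ETS factor core) or GGGCGG (a GC box).
STEAP1 promoter, chr7:90154219-90154518: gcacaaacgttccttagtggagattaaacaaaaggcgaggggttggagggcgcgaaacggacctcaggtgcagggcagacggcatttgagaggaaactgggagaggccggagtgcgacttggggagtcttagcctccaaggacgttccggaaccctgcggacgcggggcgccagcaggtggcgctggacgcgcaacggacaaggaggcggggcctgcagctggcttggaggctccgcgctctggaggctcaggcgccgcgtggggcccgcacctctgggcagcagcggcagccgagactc
STEAP2 promoter, chr7:90211490-90211789: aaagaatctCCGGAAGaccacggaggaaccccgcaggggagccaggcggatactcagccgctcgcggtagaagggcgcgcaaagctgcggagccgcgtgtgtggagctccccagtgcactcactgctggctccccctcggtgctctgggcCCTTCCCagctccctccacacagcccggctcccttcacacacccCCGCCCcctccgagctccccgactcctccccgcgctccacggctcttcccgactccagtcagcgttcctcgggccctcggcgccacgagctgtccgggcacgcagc
CEACAM5 promoter, chr19:41708376-41708675: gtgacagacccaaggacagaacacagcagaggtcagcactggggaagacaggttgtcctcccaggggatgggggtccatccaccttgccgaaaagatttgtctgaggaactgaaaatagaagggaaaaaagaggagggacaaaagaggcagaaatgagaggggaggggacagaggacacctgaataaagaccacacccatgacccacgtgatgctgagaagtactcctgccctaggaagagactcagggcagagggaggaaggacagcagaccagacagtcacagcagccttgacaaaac

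The windows of STEAP1 and STEAP2 were both rich in G and C, at 66.7% and 70.3%, with 27 and 28 CG pairs. The median over 35116 promoters was 58.7% with 14 CG pairs. The CEACAM5 window had 53.3% G and C and 2 CG pairs. STEAP2 held 1 match to each of the 3 motifs, and neither STEAP1 nor CEACAM5 held any. CCTTCCC occurred in 15.4% of all promoters of this length, CCGGAAG in 10.3% and GGGCGG in 45.0%. A second STEAP2 start in the table, chr7:90213570-90213869, had 33.7% G and C, 2 CG pairs and no match. ERBB2 held 2 matches to CCGGAAG, 60.7% G and C and 24 CG pairs. The CD276 windows had 80.3% and 76.0% G and C. The second of them also matched all 3 motifs, with 1 CCTTCCC, 1 CCGGAAG and 2 GGGCGG. The first held 7 matches to GGGCGG and none to the other motifs. A match is a run of letters and does not show that a factor binds there.

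EPCAM and CD276, both abundant, did not differ detectably. EPCAM, an epithelial adhesion protein, had 1064 and 1103 reads in the siZBTB7A tables, against 1102 and 1218 reads in the siNTC tables, and its CPM values overlapped between the groups. The fold was 0.989 (0.932 to 1.049; edgeR, adjusted p = 0.89). CD276, a B7 family protein known as B7-H3, had 744 and 790 reads in siZBTB7A, against 776 and 822 reads in siNTC, or 136 and 139 CPM in siZBTB7A and 134 and 137 CPM in siNTC. The groups overlapped, and the fold was 1.016 (0.947 to 1.09; edgeR, adjusted p = 0.872). Parts of the CD276 transcript repeat within it (12.9% of its 50-base windows), while none of its windows occurred in another gene. Of the EPCAM partners and processing genes, 1 of 19 tested was called higher and 0 lower, with a median log2 fold of 0.016. The called gene was SPINT1, a protease inhibitor, with 706 reads in siZBTB7A and 623 in siNTC and a fold of 1.199 (1.075 to 1.338; edgeR, adjusted p = 0.0303), a call lost when any 1 table was left out and with the GC and length correction (edgeR, adjusted p = 0.168). CTNNB1, beta-catenin, had a fold of 0.953 (0.921 to 0.986; edgeR, adjusted p = 0.0825). In the B7 family, 0 of 3 tested were called, with a median log2 fold of 0.023; NCR3LG1, a ligand of a natural killer cell receptor, had 213 reads in siZBTB7A and 229 in siNTC.

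ERBB2 and ERBB3 encode receptors of the EGF receptor family that signal as a pair, and both had low counts. ERBB2 had 165 and 166 reads in the siZBTB7A tables, against 161 and 199 reads in the siNTC tables, or 30.1 and 29.3 CPM in siZBTB7A and 27.7 and 33.1 CPM in siNTC. ERBB3 had 91 and 85 reads in siZBTB7A, against 94 and 83 reads in siNTC, or 16.6 and 15.0 CPM in siZBTB7A and 16.2 and 13.8 CPM in siNTC. The groups overlapped for both genes. The fold of ERBB2 was 0.973 (0.836 to 1.133; edgeR, adjusted p = 0.902), and that of ERBB3 was 1.052 (0.849 to 1.304; edgeR, adjusted p = 0.858). The TPM ratio of ERBB2 to ERBB3 was 1.59 and 1.71 in siZBTB7A and 1.5 and 2.1 in siNTC. Reads on the strand opposite ERBB2, where MIEN1 and PGAP3 lie, numbered 105 in siZBTB7A and 126 in siNTC.

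Around these receptors, 0 of 8 tested ERBB receptors and ligands were called, ERBB2 and ERBB3 included, with a median log2 fold of 0.082. EGFR had 204 reads in siZBTB7A and 229 in siNTC, a fold of 0.943 (0.777 to 1.144), and ERBB4, AREG, EREG, NRG1 and NRG3 had 0 reads in both groups. Of 26 tested ERBB adaptors and regulators, 1 was called lower and 0 higher, with a median log2 fold of 0.013. PIK3R1, the regulatory subunit of PI3 kinase, had 299 and 328 reads in the siZBTB7A tables and 413 and 462 reads in the siNTC tables. Its fold was 0.758 (0.683 to 0.841), a log2 fold of -0.40 (edgeR, adjusted p = 6.27e-05). AKT2, the gene of that list with the highest mean CPM, had a fold of 0.999 (0.945 to 1.056).

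PSCA was counted with few reads, and CEACAM5 was at or under the limit of detection. PSCA, a GPI-anchored protein of the LY6 family, had 24 and 21 reads in the siZBTB7A tables, against 17 and 23 reads in the siNTC tables. Its fold of 1.19 had an interval of 0.760 to 1.87 (edgeR, adjusted p = 0.74), so a moderate difference either way was not detectable at this depth. PSCA overlaps JRK on the opposite strand, and unstranded reads numbered 36 in siZBTB7A and 36 in siNTC. CEACAM5 had 1 and 1 reads in the siZBTB7A tables, against 0 and 0 reads in the siNTC tables. Summed, that is 0.179 CPM in siZBTB7A (0.0217 to 0.647), against 0 CPM in siNTC, which allows up to 0.312 CPM at the interval's upper end. Both lay at or under the floor of 3 reads, 0.269 CPM in siZBTB7A and 0.254 CPM in siNTC, so no fold is given. CEACAM6, a close relative, had 0 and 0 reads in siZBTB7A and 0 and 1 in siNTC, and 1 of 11 CEACAM genes was tested, CEACAM19, which was not called. Neuroendocrine markers summed to 99.6 to 99.8 CPM in the siZBTB7A tables and 102 to 103 CPM in the siNTC tables, and 0 of 6 tested were called.

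**Figure D4:**
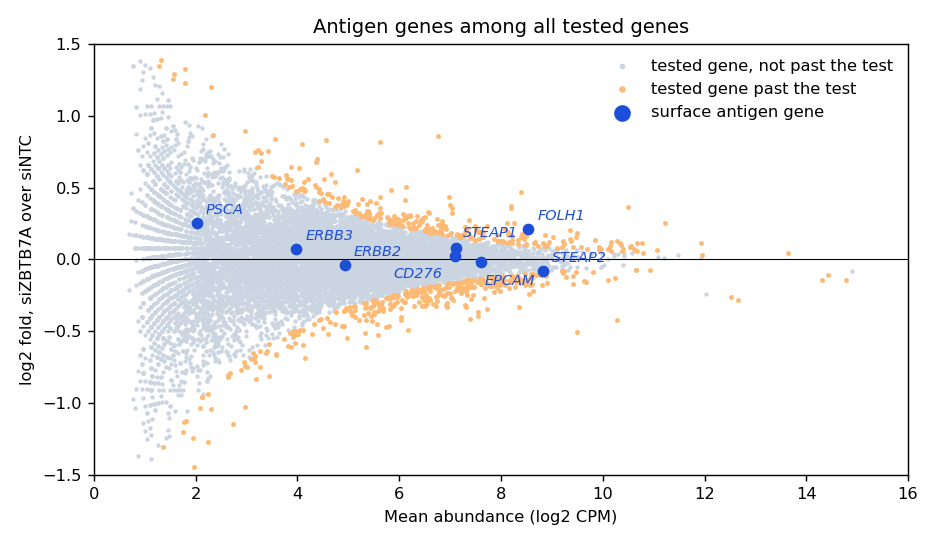
Log2 fold (siZBTB7A over siNTC) against mean abundance in log2 CPM for all tested genes, with called genes and the antigen genes marked. FOLH1 stands at 0.21 among abundant genes, the other tested antigen genes lie between -0.08 and 0.25, and 13 genes lie outside the plotted range.

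The LY6 and GPI anchor lists frame PSCA. Of the LY6 family, 0 of 7 tested were called, and LY6E, the member with the highest mean CPM, had 1410 reads in siZBTB7A and 1386 in siNTC, a fold of 1.077 (0.999 to 1.16). Of 28 tested GPI anchor synthesis genes, 1 was called higher and 0 lower, with a median log2 fold of 0.001. GPAA1, a subunit of the GPI transamidase, had 708 and 731 reads in the siZBTB7A tables and 661 and 637 reads in the siNTC tables, and its fold was 1.173 (1.088 to 1.266; edgeR, adjusted p = 0.00237). The call was lost without the second siNTC table (edgeR, adjusted p = 0.14) and with the GC and length correction (edgeR, adjusted p = 0.25).

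Among 30 other surface antigens under study as targets, 1 abundant gene was called. Of the 30, 24 were tested, and 1 was called lower and 0 higher, with a median log2 fold of -0.016. SLC39A6, a zinc transporter that is the target of antibody-drug conjugates, had 2506 and 2534 reads in the siZBTB7A tables and 2842 and 2930 reads in the siNTC tables. Its fold was 0.924 (0.890 to 0.960; edgeR, adjusted p = 0.00312), and it was not called without the second siZBTB7A table (edgeR, adjusted p = 0.122). TFRC, the transferrin receptor and the gene with the most reads in the list, had 6721 reads in siZBTB7A and 7220 in siNTC, a fold of 0.985 (0.953 to 1.019; edgeR, adjusted p = 0.709).

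**Figure D5:**
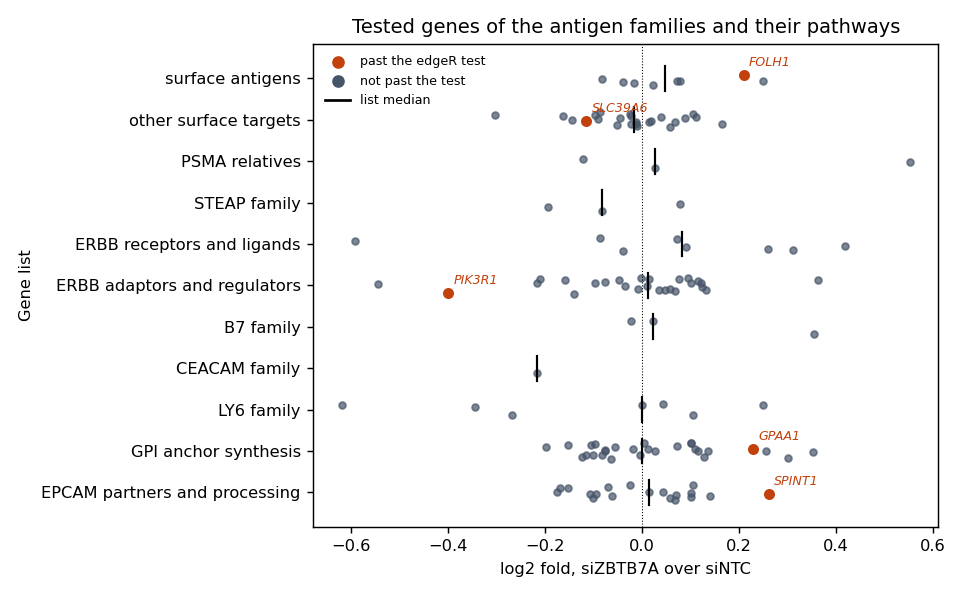
Log2 fold of the tested genes of each antigen, family and pathway list, siZBTB7A over siNTC (cell type markers are not plotted), with 1 point per gene, the list's median as a bar and called genes marked. Of the genes plotted, FOLH1, GPAA1 and SPINT1 were called higher and PIK3R1 and SLC39A6 lower, and the list medians lie close to 0 for the lists with more than 10 tested genes.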

How the data were processed

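The authors deposited a whole-number count of reads per gene for each table, with no normalization, made with a stranded total RNA kit per the labels' protocols. The submitters' processing notes name STAR 2.4.2a and the builds hg19 and GRCh37; the release of the annotation was not stated in the sources used here, and no coordinates on that build are printed. Of the count columns, the one on the kit's strand was used. Between 50.8% and 51.2% of reads were in rows that name no gene and were left out.

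The edgeR 4.0.16 quasi-likelihood test (R 4.3.3, TMM, filterByExpr, robust, group as the only term, Benjamini-Hochberg adjusted p under 0.05) was fitted on all genes and checked on simulated data. The simulated counts had a spread near that of these tables, so the check does not cover the spread between independent cultures. Folds compared each group's summed reads after TMM scaling, and their 95% intervals are exact (Clopper-Pearson). CPM used the same totals, and TPM used merged exon lengths of GENCODE 29. Chi-square tests used genes with at least 20 summed reads. RefSeq promoters were used for 5 of the 9 genes. FOLH1, EPCAM and ERBB3 had no entry, and PSCA was left out by rule. The members and lists were chosen with earlier results of these data known. The genes named are all members, every called gene of each pathway or family list, the gene with the highest mean CPM of such lists that is no member, and near-identical relatives of members. Cell type markers are named in part. Same-numbered tables were not shown to pair (correlation of deviations -0.0232 over 7461 genes). Alternatives were other scalings, DESeq2 1.42.0, limma 3.58.1 voom, other filters, unstranded counts, protein-coding genes only, a replicate block, each table left out, a null fold of 1.2, and a GC and length correction. Other steps used Python 3.11.15, numpy 2.4.6, scipy 1.17.1, pandas 2.3.3 and matplotlib 3.10.9.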

Additional observations from a re-analysis of the deposited data

Results flagged for a closer look

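Reads on the strand opposite STEAP2, which enter only the alternative with unstranded counts, numbered 13 and 11 in the siZBTB7A tables and 6 and 6 in the siNTC tables. Both siZBTB7A tables lay above both siNTC tables, and the fold from summed reads was 2.12, with a counting interval of 1.02 to 4.64. It stood out as a signal above the control level outside the main measurement, among 9 antigen genes examined, with no adjustment for that number, and its cause was not tested. Such reads made up 0.345% of the reads on both strands at STEAP2. Summed over all genes, the kit's strand held 24.9 to 25.5 times the reads of the opposite strand. STEAP2-AS1, which lies on the strand opposite STEAP2, had 23 reads in siZBTB7A and 28 in siNTC. Opposite-strand reads at STEAP1 were 6 and 5 in the siZBTB7A tables and 1 and 3 in the siNTC tables (fold 2.91, interval 0.862 to 12.5), and those at FOLH1 were 6 and 3 in siZBTB7A and 3 and 0 in siNTC (fold 3.17, interval 0.792 to 18.2). At CD276 they were 0 and 0 in siZBTB7A and 3 and 2 in siNTC.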

How the results depend on the processing

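FOLH1 kept its direction in every setting run, with a log2 fold of 0.20 to 0.22, and was the 1 antigen gene past the test in each of them but the test against a fold of 1.2, which left 0. The count over all genes was 639, and it was 105 by DESeq2, 303 to 373 when 1 table was left out, 11 in the test against a fold of 1.2 and 373 with the GC and length correction, 199 higher and 174 lower; the cause was not tested. When 1 table is left out, its group keeps fewer reads, and the lone table of that group is assumed to vary like the other group. A call lost in that setting, as for SPINT1, GPAA1 and SLC39A6, is therefore not particular to the gene, since many calls over all genes were lost too. With the replicate block 654 genes were called, and FOLH1 remained called (edgeR, adjusted p = 4.93e-09); the numbers were not shown to pair the tables. Some log2 folds of genes not past the test changed sign, among them the low-count STEAP2-AS1 and CEACAM19 (-0.20 and -0.22 with all tables). With 1 table left out they ranged from -0.067 to 0.034 for EPCAM, from -0.164 to 0.098 for ERBB2, from -0.037 to 0.186 for ERBB3, from -0.884 to 0.249 for STEAP2-AS1, from -0.051 to 0.006 for TFRC, from -0.196 to 0.021 for EGFR, from -0.022 to 0.017 for AKT2, from -0.137 to 0.086 for NCR3LG1 and from -0.478 to 0.012 for CEACAM19. The signs also turned with the GC and length correction for CD276 (-0.044), TFRC (0.021) and NCR3LG1 (0.010), and for AKT2 with upper quartile factors (0.001), no filter (0.004) and unstranded counts (0.001). SLC39A6 was not called by DESeq2 (adjusted p = 0.126), nor was GPAA1 (adjusted p = 0.153).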
